A study of Mus musculus with 12 samples.

Results

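The DNA damage checkpoint and cell survival genes of the oocyte were followed in the polysome and RNP pools of GV-stage oocytes from WT and *Lsm14b*-KO mice. The 10 members were taken by symbol from the 24259 gene rows of the expression table. They comprised *Trp63*, the kinase genes *Atm*, *Chek1* and *Chek2*, and the BCL2 family genes *Bcl2l10*, *Mcl1*, *Bax*, *Bcl2l11*, *Bbc3* and *Pmaip1*.

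Resting oocytes hold TAp63, a p53 family protein encoded by *Trp63*, in an inactive state. DNA breaks lead, through the kinase ATM, to its phosphorylation by the kinase CHK2. Active TAp63 turns on the genes of PUMA (*Bbc3*) and NOXA (*Pmaip1*), BH3-only proteins that bind survival proteins such as MCL1 and free BAX to open the outer mitochondrial membrane. CHK1, encoded by *Chek1*, is the checkpoint kinase that answers stalled replication and also restrains entry into M phase, and BIM, encoded by *Bcl2l11*, is a further BH3-only protein.

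GV oocytes, which are arrested at the germinal vesicle stage before meiotic resumption, were collected from mice aged 3 weeks, 46 h after a dose of 5 IU PMSG, a gonadotropin that makes follicles grow. The WT and the KO animals received the same priming. Per the methods of the study, the KO mice were homozygous for *Lsm14b* tm1a, a reporter-tagged insertion allele with no Cre applied, on C57BL/6J, so that the allele was present in all cells of the animal. Lysates of about 1500 oocytes, pooled from animals whose number is not stated, were treated with cycloheximide, which holds ribosomes on mRNA, and run on sucrose gradients. RNA from fractions 11 to 28 formed the polysome pool and RNA from fractions 1 to 10 the RNP pool, which holds mRNA not engaged by several ribosomes. The 4 groups, WT polysome, KO polysome, WT RNP and KO RNP, had 3 libraries each, 12 in all. The labels do not say whether the 3 libraries of a group came from separate animals or gradients, so the p-values measure the spread between these libraries, which may be technical.

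*Lsm14b*, the targeted gene, was at 11.3 to 15.3 FPKM in WT polysomes and at most 0.260 FPKM in KO polysomes, and at 27.4 to 34.6 FPKM in WT RNP against at most 0.893 FPKM in KO RNP, so that each library followed its label. FPKM sets the fragments of a gene against its transcript length and the library's mapped total, so it is a share rather than an amount per oocyte. The libraries held an estimated 4.60 to 7.84 M fragments (M, mega). KO polysome library 2 stood apart in that its 10 highest genes held 34.7% of its summed FPKM, against 11.6% to 14.7% in the other 11, mostly through *Mir300* at 170809 FPKM. The summed FPKM of 10 oocyte markers was 19176 to 21101 in WT and 21672 to 23726 in KO polysomes, and 4568 to 4710 in WT and 5713 to 6210 in KO RNP. Most of each sum was *Gdf9*, so it says little of the other markers. *Dazl* went against the sum, at 40.3 to 92.0 FPKM in WT and 10.8 to 19.2 FPKM in KO polysomes. In RNP it was at 87.7 to 100 FPKM in WT and 27.9 to 33.4 FPKM in the KO. *Bmp15* was also lower in RNP, at 641 to 714 FPKM in WT and 585 to 623 FPKM in the KO. Only *Oog1*, in KO RNP, was listed at 0 throughout a group. In bulk RNA of this kind, fewer cells of a type and less RNA per cell cannot be told apart.

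The BCL2 family genes act through short shared stretches. Their coding sequences are shown because, among the members searched, 1 survival gene and 3 pro-apoptotic genes carry the same pattern. BH3 is the helix with which pro-apoptotic proteins dock into the groove of survival proteins. The pattern searched was a leucine, 2 residues of any kind, an isoleucine, valine or methionine, a glycine or alanine and an aspartate, with the codons of the leucine and of the last 2 residues in capitals. Positions are from GENCODE on GRCm38, 5′ to 3′ on the coding strand, and each stretch lies within 1 coding exon.
*Mcl1* BH3, chr3:95659436-95659462, plus strand: CTGcggcgcgtgGGCGACggcgtgcag
*Bax* BH3, chr7:45465997-45466023, minus strand: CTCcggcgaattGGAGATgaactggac
*Bcl2l11* BH3, chr2:128147150-128147176, plus strand: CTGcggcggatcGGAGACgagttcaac
*Bbc3* BH3, chr7:16313773-16313799, plus strand: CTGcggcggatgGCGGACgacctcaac
Of these 27 bases, 22 were identical between *Bcl2l11* and *Bbc3*, 19 between *Bax* and *Bcl2l11*, and 18 between *Mcl1* and *Bbc3* and between *Bax* and *Bbc3*, with 17 between *Mcl1* and *Bcl2l11* and 16 between *Mcl1* and *Bax*. The BH1 helix, part of the groove itself, was found by its tryptophan, glycine and arginine, whose codons are in capitals, in *Mcl1* and *Bax*.
*Mcl1* BH1, chr3:95659850-95659876, plus strand: aacTGGGGCAGGattgtgactcttatt
*Bax* BH1, chr7:45465216-45465242, minus strand: aacTGGGGCCGCgtggttgccctcttc
The coding sequence of *Bcl2l10* matched neither pattern as searched, which says only that these letters were not in it. *Pmaip1* was left out of the search, so its absence here says nothing about its sequence. The likeness did not extend to shared reads, since no 50-base word of *Mcl1*, *Bcl2l10*, *Bbc3* or *Trp63* occurred in a transcript of another gene. *Bcl2l11* shared 0.221% of its words with other genes and *Chek2* 2.96%. The largest share was that of *Bax*, with 17.6% of its words in *Gm45808*, a gene on the same strand with 192 exonic bases in common, so that its FPKM may hold reads of that gene.

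*Trp63* mRNA was higher in the KO than in WT in both pools. The gene lies at chr16:25683763-25892088 on the plus strand of mm10. Its polysome levels were 4.23, 4.01 and 2.93 FPKM in the WT libraries and 16.0, 12.1 and 13.4 FPKM in the KO libraries. RNP levels were 4.22, 5.20 and 3.49 FPKM in WT and 10.4, 10.9 and 13.4 FPKM in the KO. All 3 KO libraries lay above all 3 WT libraries of their pool, and the 2 pools of a genotype overlapped. Mean levels were 3.72 ± 0.70 FPKM in WT and 13.8 ± 2.0 FPKM in KO polysomes (SD, n = 3), a 3.72-fold rise. In RNP they were 4.30 ± 0.86 and 11.6 ± 1.6 FPKM (SD, n = 3), a 2.69-fold rise. Tested with limma on log2(FPKM + 1), a scale that understates changes of genes this low, the change was 1.65 in polysomes (SE 0.36, adjusted p = 0.0250) and 1.25 in RNP (SE 0.28, adjusted p = 0.0130). The polysome call was lost on leaving out any 1 KO polysome library, with limma adjusted p of 0.0841 to 0.0986, and the RNP call on leaving out KO RNP library 3, with adjusted p = 0.0654, while the change stayed positive. FPKM per gene does not separate the TAp63 from the ΔNp63 transcripts of *Trp63*.

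*Chek1* was the most abundant kinase gene of the group and was not called between genotypes. The gene is at chr9:36708480-36726658 on the minus strand. Its level was 151, 143 and 130 FPKM in WT polysomes and 103, 142 and 148 FPKM in KO polysomes. In RNP it was 122, 92.7 and 154 FPKM in WT and 165, 160 and 152 FPKM in the KO. WT and KO libraries overlapped in both pools, and *Chek1* ranked between 481 and 903 of the 24259 genes in every library. The change in the KO was -0.12 in polysomes (95% interval -0.52 to 0.27, limma adjusted p = 0.700) and 0.40 in RNP (0.02 to 0.77, adjusted p = 0.133), and the RNP change was called without WT RNP library 3 (adjusted p = 0.0239).

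*Chek2* and *Atm*, the kinase genes upstream of TAp63, were near the bottom of the measured range and did not pass the filter of 1 FPKM in at least 3 libraries of a comparison. In WT polysomes *Chek2*, at chr5:110840015-110874133 on the plus strand, had 0, 1.52 and 0 FPKM, against 0.593, 0.946 and 0.602 FPKM in KO polysomes. Its RNP values were 0.329, 0.939 and 0 FPKM in WT and 0.127, 0.715 and 0.961 FPKM in the KO. The groups overlapped in every comparison of *Chek2*.

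*Atm*, at chr9:53437120-53536671 on the minus strand, had 0.653, 0.231 and 2.03 FPKM in the WT polysome libraries and 0.685, 0.143 and 0.415 FPKM in KO polysomes. In RNP it was at 0.418, 0 and 0.765 FPKM in WT and at 0.174, 0.0978 and 0.0882 FPKM in the KO. The *Atm* values also overlapped between genotypes in both pools, and no difference was detectable at this depth.

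**Figure D1:**
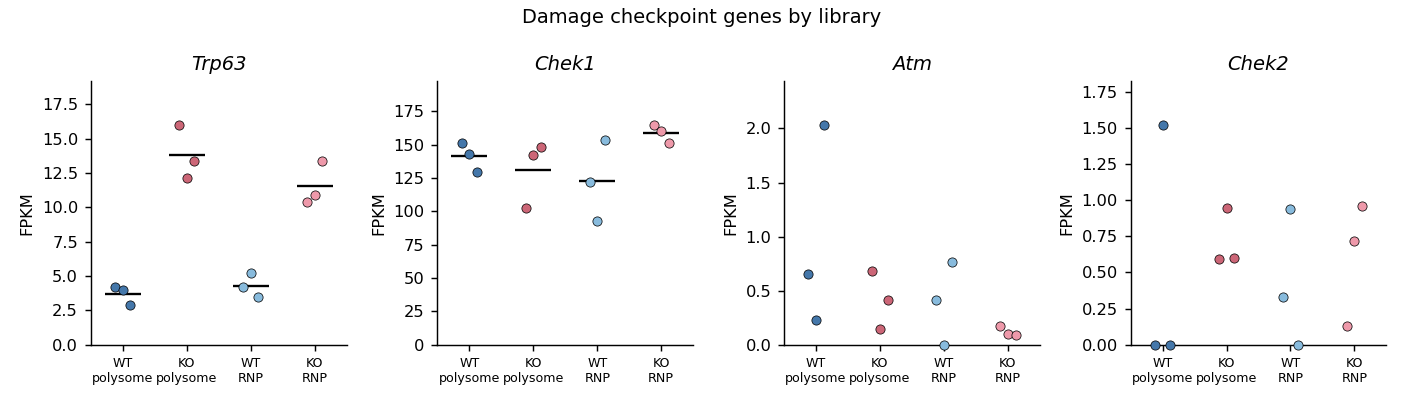
FPKM (linear axis from 0, a separate scale for each gene) of the checkpoint members in the 12 libraries, 3 points per group, with the mean as a bar for *Trp63* and *Chek1*. The KO libraries of *Trp63* sit at 10.4 to 16.0 FPKM, above the 2.93 to 5.20 FPKM of all WT libraries, while the genotypes overlap within each pool for *Chek1*, *Atm* and *Chek2*.

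*Bcl2l10* was by far the most abundant member and fell in both pools of the KO. It encodes a BCL2 relative known for its abundance in oocytes, and the mouse protein has been described with survival as well as death-promoting activity; it is counted with the survival proteins here. The gene is at chr9:75347756-75351640 on the plus strand. Polysome levels were 3212, 2974 and 2591 FPKM in WT and 1314, 1300 and 1437 FPKM in the KO. RNP levels were 5347, 5266 and 5455 FPKM in WT and 1849, 1776 and 1844 FPKM in the KO. The groups thus stood in the order WT RNP, WT polysome, KO RNP and KO polysome, with no overlap between neighbours. By rank *Bcl2l10* was among the 11 highest genes in every WT library and at place 17 to 46 in the KO libraries. Mean polysome levels of 2926 ± 313 FPKM in WT and 1350 ± 75.7 FPKM in the KO differed 2.17-fold (SD, n = 3), a change of -1.11 (SE 0.10, limma adjusted p = 0.00135). Mean RNP levels of 5356 ± 94.8 and 1823 ± 40.9 FPKM differed 2.94-fold (SD, n = 3), a change of -1.55 (SE 0.05, limma adjusted p = 5.84e-07). The call held without any single library in both pools.

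*Mcl1*, the gene of a short-lived survival protein, was low throughout and highest in KO polysomes. It lies at chr3:95658719-95663178 on the plus strand. The WT polysome libraries had 0.195, 0 and 0 FPKM and the KO polysome libraries 8.42, 1.69 and 9.39 FPKM. The RNP values were 1.64, 0 and 0 FPKM in WT and 2.17, 2.66 and 3.12 FPKM in the KO. Every KO library was above every WT library of its pool, and KO polysome library 2, the one with high *Mir300*, was the lowest of its group. At the estimated depth the KO polysome values stand on about 175, 27.5 and 139 fragments, and the single WT value above 0 in polysomes on about 3.81. On log2(FPKM + 1) the change was 2.59 in polysomes (SE 0.59, limma adjusted p = 0.0281), called, and 1.39 in RNP (SE 0.47, adjusted p = 0.0666), not called. In polysomes *Mcl1* passed the filter through its KO libraries alone, so it could not be tested with any of them left out, and the call was lost without WT polysome library 2 (limma adjusted p = 0.0566) or library 3 (adjusted p = 0.0568) and with no filter (adjusted p = 0.0771).

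Markers of granulosa and cumulus cells, the somatic cells around the oocyte, were also higher by their sum in the KO, the direction of *Mcl1* and *Trp63* in both pools and of *Bax* in RNP. The summed FPKM of 10 such markers was 27.9 to 76.3 in WT and 79.0 to 103 in KO polysomes, and 31.3 to 35.3 in WT and 42.7 to 65.5 in KO RNP, with no overlap in either pool. A mean of at least 1 FPKM was reached by 4 of the 10 in WT and 6 in KO polysomes, and by 3 in WT and 4 in KO RNP. Most of the polysome difference was *Inha*, at 0 to 9.58 FPKM in WT and 39.4 to 51.4 FPKM in KO polysomes. Without *Inha*, left out after its values were seen, the sum was 27.9 to 66.8 in WT and 27.6 to 63.7 in KO polysomes, which overlapped, and 31.0 to 35.3 in WT and 38.9 to 55.0 in KO RNP, which did not. *Cyp19a1*, the highest of the list in WT polysomes, was at 19.0 to 62.0 FPKM there and at 14.6 to 34.5 FPKM in KO polysomes. *Fshr*, at most 0.700 FPKM in WT and 3.14 to 6.74 FPKM in KO polysomes, and *Inhba*, at most 0.252 and 3.72 to 11.9 FPKM, were higher in the KO there, and *Cyp11a1*, at 0.644 to 0.838 and at most 0.0971 FPKM, was lower. The defining markers *Foxl2* and *Amhr2* were listed at 0 in all 6 polysome libraries. In RNP *Foxl2* was at 1.01 FPKM in KO library 2 and *Amhr2* at 0.749 FPKM in KO library 1, and both were otherwise at 0. Lists of theca and stroma, immune and erythroid markers summed to at most 2.38, 10.7 and 0.468 FPKM. The part of somatic RNA in the differences of *Mcl1*, *Trp63* and *Bax* was not tested.

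*Bax*, the effector that forms pores in the outer mitochondrial membrane, was called between the KO pools and not between genotypes. The gene is at chr7:45461693-45466898 on the minus strand. Polysome levels were 4.81, 4.29 and 5.29 FPKM in WT and 7.12, 5.11 and 2.47 FPKM in the KO. RNP levels were 12.8, 10.1 and 5.36 FPKM in WT and 21.0, 15.8 and 16.0 FPKM in the KO. The genotypes overlapped in polysomes, while all KO RNP libraries were above all WT RNP libraries. The RNP means, 9.40 ± 3.76 FPKM in WT and 17.6 ± 2.9 FPKM in the KO (SD, n = 3), differed 1.87-fold, a change of 0.90 (SE 0.32) that was not called (limma adjusted p = 0.0747) and was called without WT RNP library 1 (adjusted p = 0.0437). In polysomes the change was -0.06 (95% interval -1.10 to 0.99, limma adjusted p = 0.952).

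*Bcl2l11*, the BIM gene at chr2:128126036-128162547 on the plus strand, had 0.592, 5.69 and 7.27 FPKM in the WT polysome libraries and 6.85, 3.85 and 7.49 FPKM in KO polysomes. In RNP it was at 7.03, 5.79 and 8.23 FPKM in WT and at 5.37, 4.33 and 3.44 FPKM in the KO. WT polysome library 1 was far below the other polysome libraries, and in RNP the KO libraries were all below the WT libraries. Neither change was called, at 0.63 in polysomes (SE 0.66, limma adjusted p = 0.601) and -0.58 in RNP (SE 0.30, adjusted p = 0.215), and without WT polysome library 1 the polysome change was -0.12.

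*Bbc3* and *Pmaip1*, the p63 target genes that carry out the death signal, were almost undetected. *Bbc3*, at chr7:16309581-16318334 on the plus strand, was listed at 0 in all 12 libraries. *Pmaip1* was listed at 2.00 FPKM in KO polysome library 3 and 2.33 FPKM in KO RNP library 2 and at 0 in the other 10. Neither passed the filter, and a value of 0 in a table without counts can also be a failed estimate.

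**Figure D2:**
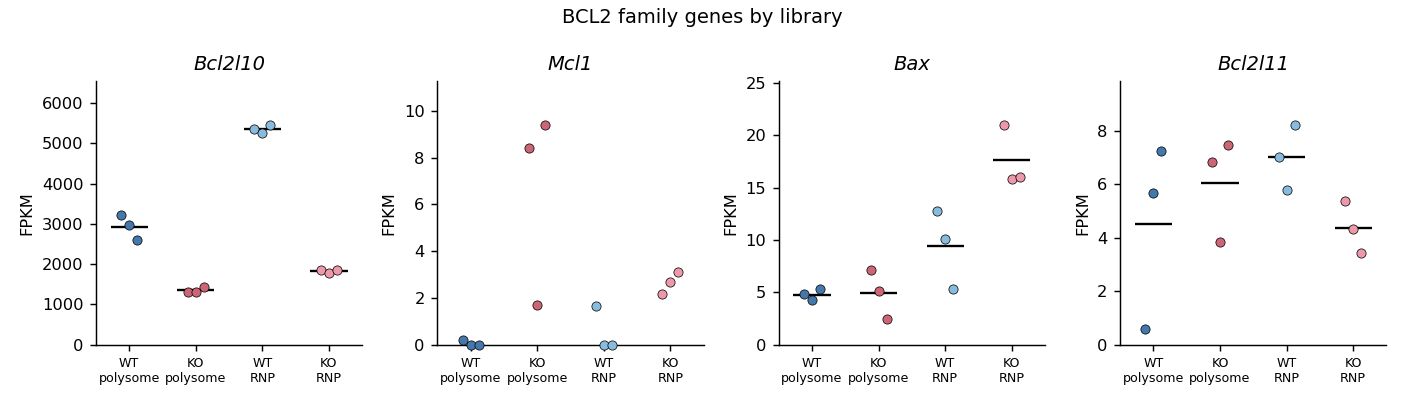
FPKM (linear axis from 0, a separate scale for each gene) of the BCL2 family members with values above 0 in most libraries, 3 points per group, with the mean as a bar except for *Mcl1*, which holds libraries at 0. *Bcl2l10* is lower in the KO in both pools, at 1776 to 1849 FPKM in RNP against 5266 to 5455 FPKM in WT. In polysomes it is at 1300 to 1437 FPKM in the KO and 2591 to 3212 FPKM in WT. *Mcl1* is above 1 FPKM in all 6 KO libraries and in 1 WT library, and *Bax* is highest in KO RNP.

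Of the 10 members, 6 passed the filter in each comparison of KO with WT, namely *Trp63*, *Chek1*, *Bcl2l10*, *Mcl1*, *Bax* and *Bcl2l11*. In polysomes 3 of the 6 were called at an adjusted p under 0.05, with *Trp63* and *Mcl1* higher and *Bcl2l10* lower, where 10.4% of the 9536 genes tested were called, 5.64% higher and 4.73% lower. *Mcl1* entered this test through the KO libraries alone and so had to differ, and without it 2 of 5 were called. In RNP 2 of the 6 were called, *Trp63* higher and *Bcl2l10* lower, where 20.7% of 9931 genes were called, 10.5% higher and 10.2% lower. The exact permutation test of a single gene cannot go below p = 0.1 with 3 libraries against 3. It gave that value for *Trp63*, *Bcl2l10* and *Mcl1* in both pools and for *Bax* and *Bcl2l11* in RNP, which says only that their libraries did not overlap. The share of all genes without overlap was not computed, so these members cannot be set against it.

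**Figure D3:**
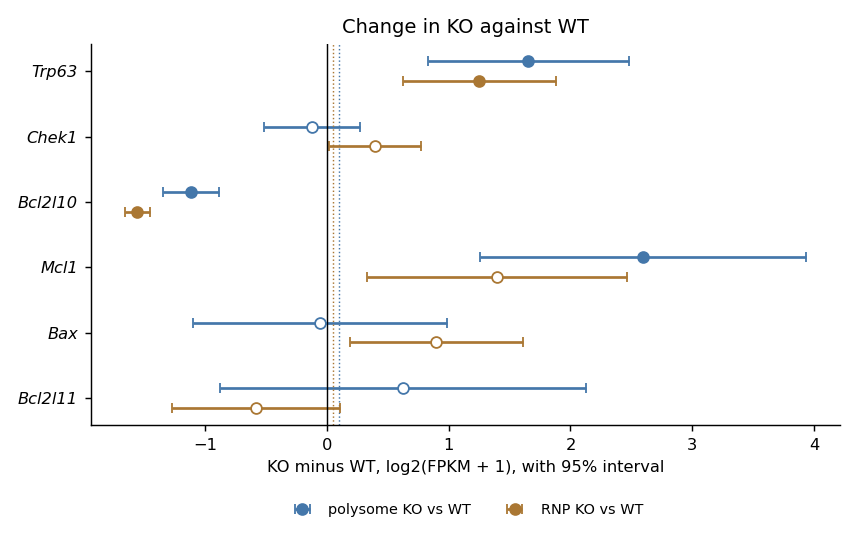
Change in the KO against WT on log2(FPKM + 1) with its 95% interval from limma, in polysomes and in RNP (3 libraries a group), for the 6 members that passed the filter. Filled points had an adjusted p under 0.05, and dotted lines mark the median change of all genes tested, 0.10 in polysomes and 0.05 in RNP. *Bcl2l10* lies at -1.11 and -1.55, and *Trp63* at 1.65 and 1.25.

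Comparing the pools within a genotype asks which mRNAs lay more in the polysome than in the RNP share. Levels in FPKM are relative to each pool, so a lower value in polysomes is a lower share of that pool. *Bcl2l10* was lower in polysomes than in RNP in both genotypes, 1.83-fold in WT and 1.35-fold in the KO, with changes of -0.88 (SE 0.08, limma adjusted p = 0.000358) and -0.43 (SE 0.07, adjusted p = 0.00140). Both of these calls were lost in the fit without an intensity trend, with limma adjusted p of 0.0614 in WT and 0.0863 in the KO. *Bax* was 3.60-fold lower in KO polysomes than in KO RNP, a change of -1.73 (SE 0.34, limma adjusted p = 0.00480). In WT it was 1.96-fold lower, a change of -0.78 (SE 0.43) that was not called (limma adjusted p = 0.271) although the libraries did not overlap. *Trp63*, *Chek1* and *Bcl2l11* were not called between pools in either genotype. The KO polysome libraries of *Chek1* were all below the KO RNP libraries, a change of -0.29 (SE 0.15, limma adjusted p = 0.170, and 0.0312 with quantile normalization). *Mcl1* passed the filter in the KO pools only and changed by 0.82 there (SE 0.51, limma adjusted p = 0.270, and 0.0132 without KO polysome library 2).

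Thus 1 of 5 members tested between pools was called in WT, where 14.7% of 9574 genes were called, and 2 of 6 in the KO, where 29.2% of 9851 genes were. The 2 comparisons rest on different libraries, and whether a pool difference itself changed with genotype was tested as the interaction over all 12 libraries. No member was called there by limma, where 0.237% of 10949 genes were called. *Bcl2l10* came nearest, its pool difference being 0.44 smaller in the KO (SE 0.11), with an unadjusted p of 0.00103 and an adjusted p of 0.127 from limma, and it was the only member with an unadjusted p under 0.05. For *Bax* the difference between genotypes was -0.96 (95% interval -2.11 to 0.20, limma adjusted p = 0.547).

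**Figure D4:**
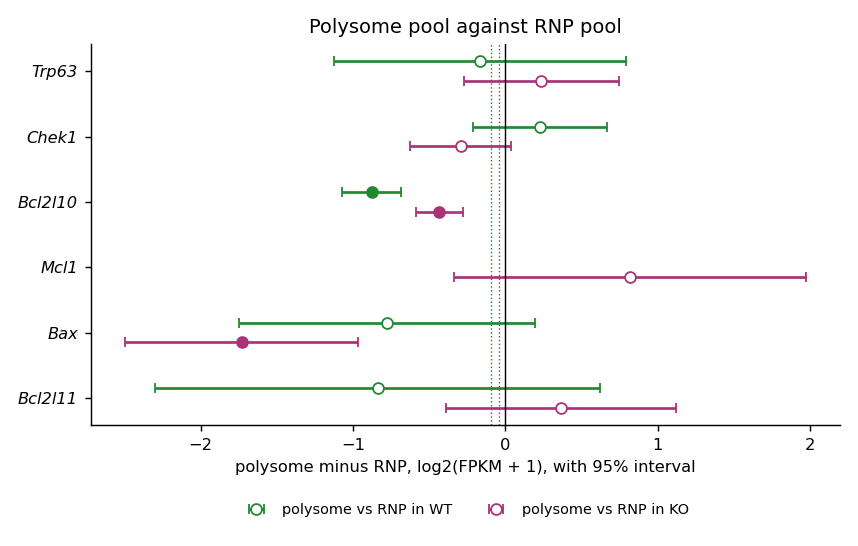
Polysome level minus RNP level on log2(FPKM + 1) with its 95% interval from limma, in WT and in the KO (3 libraries a group). Filled points had an adjusted p under 0.05, and dotted lines mark the median of all genes tested, -0.09 in WT and -0.04 in the KO. *Bcl2l10* lies to the left in both genotypes, at -0.88 and -0.43, and *Bax* is called in the KO alone, although its difference between genotypes was not.

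The balance of survival and pro-apoptotic transcripts was followed among the members alone. *Bcl2l10* is counted with the survival genes, although both activities have been described for the mouse protein. A ratio with it on the pro-apoptotic side was not computed, so the ratio does not measure a balance of activities. The measure was the ratio, in each library, of the summed FPKM of *Bcl2l10* and *Mcl1* to that of *Bax*, *Bcl2l11*, *Bbc3* and *Pmaip1*. No scaling of the library alters this ratio. *Bcl2l1*, the BCL-XL gene, is a survival gene outside the members and is not in the ratio. It stood at 262 to 385 FPKM over the 12 libraries, and a ratio that includes it was not tested. In polysomes the ratio was 595, 298 and 206 in the WT libraries and 94.7, 145 and 121 in the KO libraries. In RNP it was 270, 332 and 402 in WT and 70.3, 79.1 and 94.8 in the KO. The KO libraries of both pools were thus lower than all 6 WT libraries. Without *Bcl2l10* the ratio holds *Mcl1* as its only survival gene. Its mean was then higher in the KO, at 0.0121 in WT and 0.526 in KO polysomes and at 0.0275 in WT and 0.120 in KO RNP. The direction of the means thus turned in both pools, with an overlap of the libraries in RNP. The ratio was mostly a measure of *Bcl2l10*, which held 98.3% to 99.8% of the summed FPKM of the 6 genes, and the highest WT polysome value belonged to the library with 0.592 FPKM of *Bcl2l11*. *Bcl2l10* over *Bax* alone was 490 to 693 in WT and 185 to 582 in KO polysomes, which overlapped, and 418 to 1018 in WT and 88.1 to 115 in KO RNP.

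**Figure D5:**
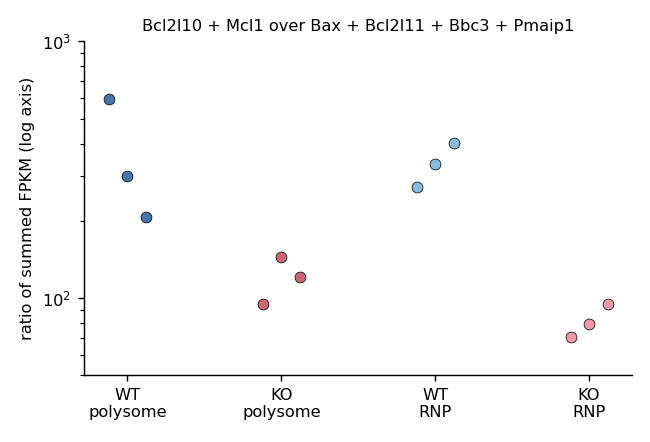
Ratio of summed FPKM of *Bcl2l10* and *Mcl1* to summed FPKM of *Bax*, *Bcl2l11*, *Bbc3* and *Pmaip1* in each library (log axis), 3 points per group. The 6 KO libraries lie between 70.3 and 145, and the 6 WT libraries between 206 and 595, an order of the group means that turns when *Bcl2l10* is left out. *Bcl2l10* is counted as a survival gene, although both activities have been described for the mouse protein. *Bcl2l1*, a survival gene that is not a member, is not in the ratio.

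Genes around the members in the same pathways were taken from 6 lists, whose calls are set against the 10.4% of all genes called in polysomes and the 20.7% in RNP. Of 26 genes of checkpoint signalling, which pass on the alarm from damaged or unreplicated DNA, 25 were tested in polysomes, with 2 called higher and 1 lower, and 23 in RNP, with 1 higher and 5 lower, shares near those of all genes (10.4% and 20.7%). *Csnk1a1*, encoding a kinase of the CK1 family, rose in both pools, by 0.78 in polysomes (SE 0.21, limma adjusted p = 0.0493) and 0.47 in RNP (SE 0.12, adjusted p = 0.0215). The call was lost in 5 of 6 fits that left out a library in polysomes and in 3 of 6 in RNP. The other CK1 genes of the list, *Csnk1d* and *Csnk1e*, named after their values were seen, were not called in either pool. *Cdc25b*, a phosphatase gene that drives meiotic resumption, rose from 65.5 ± 10.8 to 113 ± 13.3 FPKM in polysomes (SD, n = 3, limma adjusted p = 0.0308). *H2afx*, the histone gene whose product is phosphorylated at breaks, fell in both pools, and in RNP from 653 ± 65.2 to 156 ± 24.9 FPKM (SD, n = 3, limma adjusted p = 2.50e-05). *Rnf8*, a ubiquitin ligase gene recruited to breaks, fell in RNP from 287 ± 18.7 to 135 ± 6.98 FPKM (SD, n = 3, limma adjusted p = 0.000141).

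Among 8 genes of the p53 family and its regulators, all tested, none rose and 1 fell in polysomes, where 10.4% of all genes were called, and 1 rose and 3 fell in RNP, where 20.7% were. *Trp73*, the third p53 family gene, moved opposite to *Trp63*, with changes of -1.64 in polysomes (SE 0.43, limma adjusted p = 0.0446), where it passed the filter through the WT libraries alone, and -2.20 in RNP (SE 0.36, adjusted p = 0.00319). *Trp53* rose in RNP from 23.3 ± 2.5 to 38.3 ± 2.4 FPKM (SD, n = 3, limma adjusted p = 0.0174). *Ppm1d*, a phosphatase gene that switches the checkpoint off, fell in RNP by 1.23 on the log2 scale (SE 0.36, limma adjusted p = 0.0387).

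Of 16 target genes of the p53 family, 7 were tested in polysomes with none called (10.4% of all genes), and 9 in RNP with 2 higher and 1 lower (20.7% of all genes). *Aen*, an exonuclease gene, rose by 1.52 in RNP (SE 0.46, limma adjusted p = 0.0451). *Ccng1*, the cyclin G1 gene, was at 0, 0.403 and 0 FPKM in WT RNP and at 3.55, 3.37 and 9.80 FPKM in KO RNP, and *Fas*, a death receptor gene, was at 1.27 to 5.49 FPKM in WT RNP and listed at 0 in all KO RNP libraries. Both entered the test through 1 genotype alone and so had to differ, which leaves *Aen* as the called gene of this list that passed the filter in both genotypes. Its call was not stable, being lost in 4 of 6 fits that left out a library and in 3 of 8 other settings. Of 12 other effectors and BH3-only genes, 6 were tested in polysomes with none called (10.4% of all genes) and 7 in RNP (20.7% of all genes called), where *Bnip3l*, a mitophagy receptor gene, rose by 0.41 and *Bik*, a BH3-only gene, fell by 1.03 on the log2 scale (limma adjusted p = 0.0444 and 0.0367). Of 6 other survival genes only *Bcl2l1*, the BCL-XL gene, was tested. Its level was 262 to 284 FPKM in WT and 275 to 336 FPKM in KO polysomes and was not called in either pool; it is named after its values were seen.

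Of 16 genes of the apoptosome, the caspases and their inhibitors, 11 were tested in polysomes with 1 higher, and 13 in RNP with 1 higher and 2 lower, near the 10.4% and 20.7% of all genes. *Birc5*, encoding survivin, was the gene that rose, by 0.39 in polysomes (SE 0.09, limma adjusted p = 0.0354) and 0.61 in RNP (SE 0.06, adjusted p = 0.000267). *Htra2*, a mitochondrial protease gene, and *Birc3*, a caspase inhibitor gene, fell in RNP by 0.98 and 0.38 on the log2 scale (limma adjusted p = 0.0314 and 0.0303). The median change of the lists lay between -0.07 and 0.39 in polysomes and between -0.34 and 0.59 in RNP, where the medians of all genes were 0.10 and 0.05. Of 19 KO calls of the list genes named above, 5 held without any single library, those of *H2afx* in both pools and of *Rnf8*, *Trp73* and *Birc5* in RNP, and 13 were lost without at least 1. Each of the 13 was lost in at least 3 such fits. That of *Bnip3l* in RNP was lost in 6 of 6, and those of *Birc5* in polysomes and *Bik* and *Ppm1d* in RNP in 5 of 6. Those of *Trp73* in polysomes and *Fas* in RNP were lost in all 3 fits that could be made. The call of *Ccng1* held in the 3 fits without a WT library and could not be fitted without a KO library.

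The genes whose pattern over the 12 libraries was most like that of the 3 most abundant members were sought by Pearson's r of log2(FPKM + 1), over 6680 candidates whose mean reached 5 FPKM. For *Bcl2l10* they were *Btg4* (r = 0.996), *Parp12* (r = 0.987) and *H2afx* (r = 0.986). Mean *Btg4* levels were 838 FPKM in WT and 395 FPKM in KO polysomes and 1614 and 550 FPKM in RNP, the same order of groups as *Bcl2l10*. For *Chek1* they were *Tab3* (r = 0.887), *Cetn3* (r = 0.859) and *2010002M12Rik* (r = 0.825), and for *Bax* they were *Snrpd2* (r = 0.953), *Sepw1* (r = 0.924) and *Gm5134* (r = 0.921). These correlations are descriptions over libraries that share their 4 groups.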

How the data were processed

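RNA of the polysome and RNP pools was sequenced in 12 libraries, grouped by genotype and pool from the sample labels. The authors trimmed the reads, used TopHat2 2.0.13 for alignment to mm10 and made the deposited FPKM per gene and library with Cufflinks 2.2.1. The labels also list Cuffnorm, and the annotation release is not given in the sources used here. The deposited log2 changes and p-values of the authors' comparisons (54 columns) were not used. The library kit and the top sucrose concentration differ between sources.

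FPKM holds no counts, so values were tested as log2(FPKM + 1) with limma 3.58.1 in R 4.3.3, with an intensity trend, on genes with at least 1 FPKM in at least 3 libraries of the comparison, with Benjamini-Hochberg adjustment at 0.05 over all genes tested. KO and WT were compared in each pool, the pools in each genotype, and the interaction over all 12 libraries. The test was checked on data simulated with normal noise, a setting that suits it. It recovered the size and direction of changes but missed a share of them, also at the largest size simulated. The pass mark for changes found was lowered after the output was seen. A gene that was not called may thus still differ. Exact permutation tests were two-sided. Python 3.11.15, pandas 2.3.3, numpy 2.4.6, scipy 1.17.1 and matplotlib 3.10.9 were used. Gene models came from GENCODE M21 on GRCm38. Depth estimates came from the regular spacing that best matched low FPKM values of genes with 1 annotated transcript. The effective length was taken as the annotated length less 200 bases. The match scored 0.391 to 0.649 over the libraries, where 1 is a perfect match, so the fragment numbers are rough.

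The members and lists were chosen with earlier results of these data known. The genes named are the members, *Lsm14b*, up to 2 largest rises and 2 largest falls per pathway list among calls in each KO comparison, and the 3 genes most like each of the 3 most abundant members. Alternatives were another pseudocount, another filter, 2 rescalings, no intensity trend, a replicate block and each library left out.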

Additional observations from a re-analysis of the deposited data

Results flagged for a closer look

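*Rnf8* was the named gene with a called difference between genotypes in its pool difference, and the call was not stable. Its polysome level relative to RNP was -0.26 in WT (SE 0.12) and 0.54 in the KO (SE 0.10) on the log2 scale, a difference of 0.80 (SE 0.15, limma adjusted p = 0.0490 for the interaction). Mean levels were 239 ± 23.4 FPKM in WT and 197 ± 9.30 FPKM in KO polysomes, and 287 ± 18.7 and 135 ± 6.98 FPKM in RNP (SD, n = 3). The difference stayed between 0.75 and 0.88 with each of the 12 libraries left out in turn, and its call was lost in 11 of these fits, at limma adjusted p of 0.0662 to 0.174. It was also lost in 5 of 8 other settings, at limma adjusted p of 0.0501 to 0.308. No member met a rule for a closer look, and groups of 3 libraries were not tested for outlying values.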

How the results depend on the processing

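The changes of the members, each tested in the comparisons where it passed the filter, kept direction and call in 415 of 434 alternative fits, lost the call in 10, gained it in 5 and changed sign in 4. A change that was not called and stayed so counts as kept, so the 415 say little about the stability of the calls. None of the 4 that changed sign were called. The polysome change of *Bax* became 0.0047 without WT polysome replicate 3 and 0.29 without KO polysome replicate 3, that of *Bcl2l11* -0.12 without WT polysome replicate 1, and that of *Chek1* 0.041 without KO polysome replicate 1. Over all fits that left out a library these changes ran from -0.33 to 0.29 for *Bax*, -0.12 to 1.07 for *Bcl2l11* and -0.22 to 0.041 for *Chek1*. *Bcl2l10* kept both KO calls in every fit, with changes of -1.25 to -1.10 in polysomes and -1.55 to -1.40 in RNP outside the fits that left out a library. The polysome call of *Trp63* was lost in 3 of 6 fits that left out a library and in 1 of 8 other settings. That of *Mcl1* was lost in 2 of 3 and in 1 of 7, and fits in which it failed the filter are not counted. The polysome change of *Mcl1* ran from 1.10 with a pseudocount of 5 to 5.19 with a pseudocount of 0.1. The calls of other named genes were lost in 97 of 310 fits, with no change of sign.

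Members called with a library left out numbered 1 to 3 in KO against WT polysomes, 1 without any KO polysome library, and 1 to 4 in RNP, 4 without WT RNP replicate 1 and 1 without KO RNP replicate 3. Without an intensity trend 0 members were called in the WT pool comparison and 1 in that of the KO. Genes called in polysomes were 545 with no filter, 508 without the trend and 383 to 790 with a library left out, against 989. In RNP they were 1255 to 1911 with a library left out, against 2057, and the fits without a KO library gave the lowest counts. Between the WT pools they were 728 without the trend and 780 to 1212 with a library left out, against 1406. For the interaction they were 6 without the trend, 11 with the replicate block and 0 to 46 with a library left out, against 26. Where a cause is not set by the fit itself, as with fewer libraries or genes, the cause was not tested.

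The labels do not say whether same-numbered libraries belong together, and the main fits took all libraries as unpaired. Deviations of same-numbered libraries from their group means had correlations of -0.021 to 0.026. Such values cannot show whether same-numbered libraries shared a lysate, because deviations over all genes may be mostly noise. With the replicate block 672 genes were called in polysomes, 1799 in RNP, 1165 in the WT pool comparison and 2720 in that of the KO, and of the members *Trp63* lost its polysome call (limma adjusted p = 0.0607).

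The ratio of survival to pro-apoptotic FPKM was taken over the members, without *Bcl2l1* and with *Bcl2l10* counted as a survival gene. With *Bcl2l10* left out, it was at most 0.0362 in WT and at least 0.189 in KO polysomes, and in RNP at most 0.0826 in WT and 0.0825 to 0.160 in the KO. Its mean was thus higher in the KO in both pools, with an overlap in RNP. With *Bax* left out it was 356 to 5430 in WT and 152 to 338 in KO polysomes, and with *Bcl2l11* left out 490 to 693 and 186 to 324. FPKM without counts limits what can be said of *Atm*, *Chek2*, *Bbc3* and *Pmaip1*. Without a filter none of *Atm*, *Chek2* and *Pmaip1* was called between genotypes, with limma adjusted p of 0.522 to 0.759, and *Bbc3* could not be fitted.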
